A study of Anguilla anguilla with 11 samples.

Results

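RNA of the rete mirabile of European eels (Anguilla anguilla) was compared between libraries titled FG1907 and libraries titled FG1835, with the life stage of the eels as a term. The rule took every raw count column of the deposited table by its title, which gave 11 of the 11 libraries of the series: 5 of FG1907 (3 silver eels, numbers 01, 02 and 03, and 2 yellow eels, 04 and 06) and 6 of FG1835 (3 silver eels, 04, 05 and 06, and 3 yellow eels, 01, 02 and 03). Yellow eels are the resident growth stage and silver eels the stage of the spawning migration, and each library holds 1 eel. By the study's methods, all eels were female animals of Lake Constance, the rete was perfused with heparinized saline until no blood cells were left, and polyA-selected RNA was sequenced on either of 2 instruments with different read lengths. Which library ran on which instrument is not given in the sources used here, so the library set, the sequencing run, the read type, the date and the eels themselves cannot be told apart. A difference between the sets is therefore a measurement of these 11 libraries and has no biological treatment behind it.

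The rete mirabile is a countercurrent organ of densely packed arterial and venous capillaries that supply the gas gland of the swimbladder. Lactate, protons and carbon dioxide leave the gas gland on the venous side and diffuse back to the arterial side, which raises the gas partial pressures in the blood that returns to the gland. Its capillary wall is made of endothelial cells, pericytes and a basement membrane. Monocarboxylate transporters carry lactate together with protons across membranes, and caveolae, flask-shaped pits of the cell membrane, are abundant in endothelium.

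Totals of assigned counts were 9360429 to 11743685 per FG1907 library and 10026066 to 12438185 per FG1835 library, with 31633 to 33080 and 32706 to 33595 transcripts detected. The closest pair of libraries correlated at 0.944 (Pearson's r over log2 counts of transcripts), and no library was a copy of another. The first principal component held 44.8% of the variance and separated the sets, with FG1907 scores of 12.2 to 126.8 and FG1835 scores of -82.9 to -55.8. On the second component (13.1%) the silver eel library FG1907_02 stood apart at 136.3, and values without it are given beside the results that it moves most. The endothelial markers cld5, vwf and cadh5 were expressed in every library, and haemoglobin transcripts were few.

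**Figure D1:**
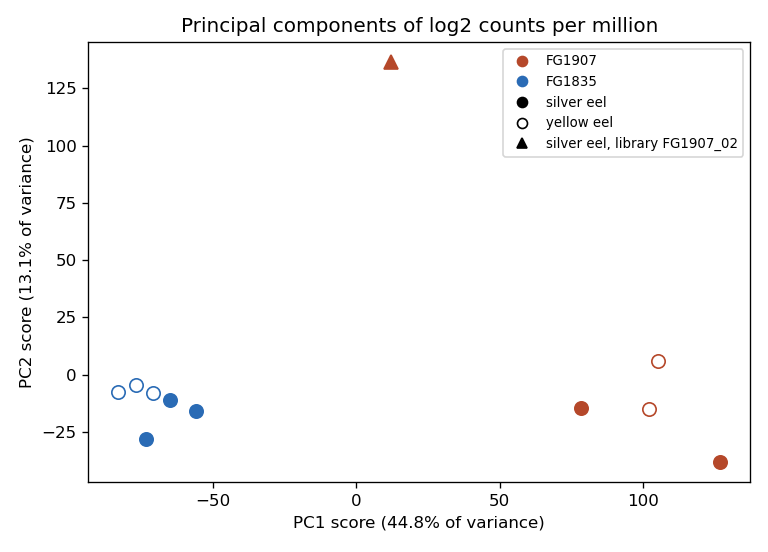
Scores of the 11 libraries on the first and second principal components of log-scaled counts, in score units, FG1907 in red and FG1835 in blue, silver eels filled and yellow eels open. The 5 FG1907 libraries lie at positive and the 6 FG1835 libraries at negative first-component scores, and the triangle, FG1907_02, lies at 136.3 on the second component.

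The question here is how far 2 sets of rete libraries with both stages in each differ, and in which genes. Of 25884 tested transcripts, 4917 (19%) were higher and 4685 (18.1%) lower in FG1907 than in FG1835 at an adjusted p under 0.05, together 9602 (37.1%), in edgeR's quasi-likelihood test. Those shares are the background against which the count of each gene list has to be read, and counts of 5 or fewer in a list moved by up to 3 when any 1 library was left out, apart from the fibroblast list. Of the called transcripts 2559 were higher and 3652 lower by more than 1 on the log2 scale. Every FG1907 library lay above every FG1835 library for 2477 transcripts (9.57%) and below for 2799 (10.8%). Upper quartile scaling and scaling by library totals gave 3735 higher and 5620 lower, and 3787 higher and 5362 lower, so that 39.9% and 41.4% of the calls were higher where TMM scaling gave 51.2%. They moved the median log2 difference of all tested transcripts to -0.12 and -0.11, where TMM scaling left it at 0.022.

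The set difference was called in both stages, with unequal counts. In yellow eels alone (2 against 3 libraries), 3685 transcripts were higher (14.3%) and 4102 lower (15.9%) of 25826 tested. In silver eels alone (3 against 3), 148 were higher (0.632%) and 279 lower (1.19%) of 23417. Without FG1907_02 the counts over both stages were 5587 higher (21.9%) and 6232 lower (24.4%) of 25508, and 9243 of the 9602 called transcripts were called again. A set difference that depends on the stage was called for 0 transcripts (0%) in edgeR, where 1271 had an unadjusted p under 0.05, for 23 in DESeq2 and for 0 in limma.

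Calls in the 2 directions were unevenly spread over the levels of the transcripts. Among the 6471 tested transcripts with the highest mean relative expression value (counts divided by a size factor per library), 27.3% were higher and 14.02% lower in FG1907. Among the 6471 with the lowest 8.44% were higher and 19.3% lower. The deposited table counts predicted genes of a draft genome on their own, and 5018 gene names had at least 2 tested transcripts. Of these names 314 (6.26%) had transcripts called in both directions, which only the 1392 names with 2 or more calls could have. A gene is therefore given below with the identifier of the predicted transcript, and the division of reads between transcripts of one name is uncertain.

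The 10 transcripts with the smallest p among those lower in FG1907 included RNA processing and lactate transport proteins. The splicing proteins srrm1 (g25073) and sr140 (g174) had relative expression values of 96.4 to 243 in FG1907 and 1077 to 1958 in FG1835, and of 109 to 208 in FG1907 and 989 to 1315 in FG1835, without overlap. Their log2 differences, FG1907 minus FG1835 with the standard error, were -3.21 ± 0.23 (adjusted p = 3.84e-05) and -2.96 ± 0.21 (adjusted p = 3.84e-05). Beside them stood the lactate carrier transcripts mot1 (g33801) and mot1 (g33555), the splicing factor subunit sf3b1 (g18591) and ulk1 (g24002), a kinase that starts autophagy, with -2.70 ± 0.22. The others were zbtb2 (g11809), a zinc finger protein, with -2.14 ± 0.17, rai14 (g25555), ankycorbin, with -2.26 ± 0.19, mdm4 (g21491), a p53 inhibitor, with -3.10 ± 0.26, and map7 (g5966), a microtubule-binding protein, with -3.38 ± 0.29.

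Among the 10 transcripts with the smallest p in the other direction, 3 belong to mitochondria. They were the fatty acid enzyme acadl (g2767), the iron-sulfur cluster scaffold iscu (g26037) and the mitochondrial ribosome protein rm21 (g15697), whose values are given with their lists. The carboxypeptidase cpvl (g2016) had 805 to 1021 in FG1907 and 253 to 375 in FG1835 and a log2 difference of 1.57 ± 0.14. Spartin, spg20 (g9655), stood at 1.69 ± 0.15, the nucleotide hydrolase nudt5 (g15172) at 1.64 ± 0.15 and the thymine DNA glycosylase tdg (g14928) at 1.58 ± 0.15. The acyl desaturase acod (g5657), which makes monounsaturated fatty acids, stood at 2.06 ± 0.20, and the splicing helicase u520 (g27162) at 1.80 ± 0.17. The cilium protein ccd39 (g15228) had the greatest log2 difference of these 10 with 2.54 ± 0.24. All 20 transcripts had sets that did not overlap and the same sign in silver and in yellow eels. They were chosen by p over these same libraries, so neither property is a separate check. The same sign was found for 8866 of the 8866 called transcripts tested in both stages (100%). These were called over the same libraries by a set term common to both stages, which favours equal signs. That share is therefore no separate check of the stages either.

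Of the markers of endothelial cells, which line the capillaries, 10 of 28 tested transcripts were lower and 2 higher (4 higher without FG1907_02). The median log2 difference was -0.66. That is 35.7% lower and 7.14% higher, beside 18.1% and 19% of all tested transcripts. The lower ones carry only the names cadh5, erg, fli1, tie1 and vgfr4, and the 2 higher ones are both vwf. Summed shares of the list overlapped (0.421 to 0.764% in FG1907 and 0.633 to 0.788% in FG1835). The most abundant markers did not follow the lower ones. Claudin-5, cld5 (g6920), a seal of endothelial tight junctions, had relative expression values of 22319.6, 5087 and 19237 in silver and 14694 and 18788 in yellow eels of FG1907, against 11108, 13461 and 15364 (lowest, median, highest) in FG1835. The 4 FG1907 libraries other than FG1907_02 lay in the upper part of the FG1835 range or above it, and FG1907_02 lay below all. The log2 difference was 0.25 ± 0.30 (adjusted p = 0.521) and 0.44 (adjusted p = 0.0361) without FG1907_02. Von Willebrand factor, a clotting protein stored in endothelium, gave different results for its transcripts: vwf (g357) had 4165 to 15841 in FG1907 and 6360.2 to 16125 in FG1835 with a difference of -0.33 ± 0.35 (adjusted p = 0.479), whereas the less abundant vwf (g34236) had 657 to 2091 in FG1907 and 180.4 to 771 in FG1835 and was higher by 1.45 ± 0.37 (adjusted p = 0.00985). A further transcript, vwf (g45479), was higher by 1.02 ± 0.34 (adjusted p = 0.0333), and the adjusted p reached 0.0814 with 1 library left out. The VEGF receptor vgfr2 (g8472) was not called at -0.48 ± 0.23 (adjusted p = 0.118). Other abundant markers not called were egfl7 (g3251) at 0.56 ± 0.29 (adjusted p = 0.151), peca1 (g43202) at -0.13 ± 0.43 and tie2 (g1122) at -0.21 ± 0.36. A further transcript, tie2 (g4749), was not called at -0.81 ± 0.30 (adjusted p = 0.0503), though its sets did not overlap. Without FG1907_02, egfl7 was higher by 0.75 (adjusted p = 0.0041) and tie2 (g4749) lower by 0.62 (adjusted p = 0.00644).

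The endothelial transcripts that were lower include junction and transcription factor genes. VE-cadherin, the adhesion protein of endothelial junctions, had 1497, 1092 and 847 in silver and 1458 and 1455 in yellow eels of FG1907, against 2141, 3439 and 4497 (lowest, median, highest) in FG1835 for cadh5 (g17569). No FG1907 library reached the lowest FG1835 library. The difference was -1.39 ± 0.22 (adjusted p = 0.000807), and a further transcript, cadh5 (g3545), had -1.43 ± 0.27 (adjusted p = 0.0022), also without overlap. A less abundant one, cadh5 (g38811), was lower with overlap (-0.76 ± 0.24, adjusted p = 0.0242). The endothelial transcription factor erg (g2158) had 1251, 914 and 813 in silver and 742 and 1079 in yellow eels of FG1907, against 1912, 2261 and 2788 (lowest, median, highest) in FG1835. These sets did not overlap either, at -1.25 ± 0.19 (adjusted p = 0.000569), and the related factor fli1 (g12823) was lower at -2.19 ± 0.19 (adjusted p = 6.99e-05). Its other transcripts differed less. Of these, fli1 (g20134) was lower with overlap (-0.70 ± 0.23, adjusted p = 0.0299). Not called were fli1 (g31673) at -0.13 ± 0.26 (adjusted p = 0.721) and fli1 (g20087) at -0.94 ± 0.40 (adjusted p = 0.0822). The receptor tyrosine kinase tie1 (g2753) was lower with -0.65 ± 0.20 (adjusted p = 0.0223), a call that was lost without FG1907_06 and without FG1835_05 (-0.65 and -0.57). In each of these genes, fewer endothelial cells in the sample and less RNA of the gene per cell cannot be told apart in whole tissue, which holds for every list here.

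Mural cells, the contractile pericytes and smooth muscle cells around vessels, had 18 of 50 tested transcripts lower and 1 higher, with a median log2 difference of -0.56. Again the most abundant members, tagl (g17080) (transgelin) and cald1 (g5765) (caldesmon), were not called, at -0.17 ± 0.20 and -0.29 ± 0.23, the second of which became -0.54 (adjusted p = 0.0248) without FG1907_02. The tropomyosin tpm1 (g1838) was not called at -0.40 ± 0.20, but was lower by 0.62 (adjusted p = 0.0232) without FG1907_04. The smooth muscle myosin myh11 (g44304) had 41.7, 121 and 50.5 in silver and 72.4 and 60.3 in yellow eels of FG1907, against 264, 361 and 478 (lowest, median, highest) in FG1835. FG1907_02 was the highest of its set and still lay below every FG1835 library. The difference was -2.37 ± 0.29 (adjusted p = 0.000216). A more abundant transcript, myh11 (g2226), had 2960 to 12166 in FG1907 and 10169 to 18962 in FG1835, which overlap. It was lower at -0.91 ± 0.27 (adjusted p = 0.0198), and the adjusted p reached 0.0588 with 1 library left out. The G-protein signalling regulator rgs5 (g3655) was lower without overlap (2137 to 8801 in FG1907 and 9798 to 19128 in FG1835). Its difference was -1.64 ± 0.30 (adjusted p = 0.00179). The tropomyosin tpm2 (g15300) (-1.39 ± 0.28) and the mural receptor notc3 (g16330) (-2.64 ± 0.39) were lower without overlap. The kinase of myosin light chains, mylk (g8591), was the only transcript of the list that was higher (1.78 ± 0.35, adjusted p = 0.00268). More abundant transcripts of notc3 and mylk were not called. They were notc3 (g19820) at -0.72 ± 0.31 (adjusted p = 0.0818), mylk (g20981) at 0.56 ± 0.25 (adjusted p = 0.0948) and mylk (g16293) at -0.61 ± 0.23 (adjusted p = 0.0560). The less abundant mylk (g44506) was not called either (0.059 ± 0.27). As a share of all counts, the list summed to 0.726 to 1.87% in FG1907 and 1.44 to 1.71% in FG1835, and the FG1907 maximum is FG1907_02. In that library a single transcript, rgs5 (g2442), stood at 48165, with 50.5 to 796 in the other FG1907 libraries and 114 to 869 in FG1835. It was not called (3.40 ± 1.62, adjusted p = 0.116), and its difference was -0.051 without FG1907_02. The maximum includes this transcript, and the share without it was not computed.

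Fibroblast markers, the genes of matrix-producing cells, had 2 of 26 tested transcripts higher and 0 lower with all libraries, and 1 higher and 6 lower without FG1907_02. That library had the highest values of the fibrillar collagen chains co1a2 (g11901) with 13412 and co1a1 (g7014) with 13732, against 4314 to 8171 and 4152 to 8669.5 in the other FG1907 libraries. Neither chain was called, at 0.0077 ± 0.29 and 0.40 ± 0.29, or -0.35 (adjusted p = 0.157) and 0.059 (adjusted p = 0.839) without FG1907_02. The median of the list was 0.20 with FG1907_02 and -0.19 without it. With all libraries, 7.69% higher and 0% lower are under the 19% and 18.1% of all tested transcripts. The small matrix proteoglycan decorin, pgs2 (g8899), was higher with 4031, 1806 and 654 in silver and 1794 and 1026 in yellow eels of FG1907, against 331, 602 and 839 (lowest, median, highest) in FG1835. Only FG1907_03 fell inside the FG1835 range, and the difference was 1.58 ± 0.41 (adjusted p = 0.0111). Biglycan, pgs1 (g8391), was called higher at 1.92 ± 0.66 (adjusted p = 0.0384), but not without FG1907_02 (1.28, adjusted p = 0.0833), nor without FG1907_04, FG1835_01, FG1835_03, FG1835_05 or FG1835_06 (1.65 to 1.87).

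Blood cells are removed by perfusion as far as it reaches. Red cell markers summed to 0.00805 to 0.0240% of counts in FG1907 and 0.0132 to 0.0260% in FG1835. The haemoglobin transcript hbaa (g28202) had 16.4 to 436 in FG1907 and 8.67 to 293 in FG1835 and was not called (0.87 ± 0.82, adjusted p = 0.421), with 0.076 without FG1907_02. The only called member of 13 tested was the ammonium channel rhag (g27241), lower at -1.04 ± 0.19 (adjusted p = 0.00194). Leukocyte markers summed to more, 0.0796 to 0.192% in FG1907 and 0.148 to 0.198% in FG1835. Of 30 leukocyte transcripts 4 were higher and 5 lower, counts that ranged from 1 (without FG1907_01) to 5 and from 2 (without FG1907_06 or FG1835_06) to 6 when 1 library was left out. With all libraries that is 13.3% and 16.7%, beside 19% and 18.1% of all tested transcripts. The leukocyte phosphatase ptprc (g6670) and the chemokine receptor cxcr4 (g44825) were not called at -0.13 ± 0.34 and -0.029 ± 0.23. The integrin chain itam (g10214) had 11361, 3343 and 4242 in silver and 3960.4 and 3318 in yellow eels of FG1907, against 5597, 8014 and 15541 (lowest, median, highest) in FG1835. FG1907_01 alone was high in its set. The difference of -0.90 ± 0.34 (adjusted p = 0.0527) was not called, but was lower by 1.29 (adjusted p = 0.00379) without FG1907_01 and by 1.02 (adjusted p = 0.0477) without FG1835_04. The summed leukocyte share, whose FG1907 maximum is FG1907_01, includes itam (g10214). The share without that transcript was not computed. In opposite directions and without overlap, the signalling adaptor lcp2 (g21702) was higher (3.08 ± 0.31, adjusted p = 0.000107) and the integrin chain itb2 (g19179) lower (-2.16 ± 0.43, adjusted p = 0.00262). Thrombocyte markers had 0 higher and 2 lower of 9, between 0 (without FG1835_02) and 4 (without FG1907_02) lower, and thromboxane synthase, thas (g15234), was not called at 0.47 ± 0.34. Their share lower with all libraries, 22.2%, is near the 18.1% of all tested transcripts.

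Genes of the interferon response and of antigen presentation were lower for 12 of 66 tested transcripts and higher for 2, with a median of -0.58 (-0.37 without FG1835_01). The share lower, 18.2%, is near the 18.1% of all tested transcripts, and the share higher, 3.03%, is under their 19%. Beta-2 microglobulin, the light chain of class I molecules, was not called for its most abundant transcript b2mg (g15967) (-0.026 ± 0.19), and was lower for b2mg (g20315) with -0.86 ± 0.25 (adjusted p = 0.0184). A class I heavy chain, ha1l (g45226), had 66.0, 15.6 and 10.6 in silver and 10.2 and 24.1 in yellow eels of FG1907, against 110.0, 270.4 and 328 (lowest, median, highest) in FG1835. All FG1907 libraries were lower than the lowest FG1835 library, with -3.37 ± 0.50 (adjusted p = 0.000557).

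Markers of tissues next to the rete gave mixed results. Of 22 epithelial transcripts 3 were higher and 4 lower, 13.6% and 18.2% beside 19% and 18.1% of all tested transcripts. Keratin 18, k1c18 (g5911), was higher by 0.61 ± 0.17 (adjusted p = 0.0131). Its partner keratin 8, k2c8 (g5912), was lower at -0.52 ± 0.18 (adjusted p = 0.0352). The call of keratin 8 was lost without FG1907_03, FG1907_06, FG1835_03, FG1835_05 or FG1835_06, at -0.50 to -0.45. Skeletal muscle transcripts were higher for 7 and lower for 8 of 25, and lower for 5 without FG1907_06: the muscle creatine kinase kcrm (g13462) was higher (236 to 364 in FG1907 and 53.9 to 112 in FG1835, 1.80 ± 0.21), the skeletal actin acts (g6116) lower (4.17 to 16.4 in FG1907 and 41.3 to 130.0 in FG1835, -3.65 ± 0.44) and nebulin, nebu (g5724), not called (-0.17 ± 0.35). With all libraries, 28% of the muscle transcripts were higher and 32% lower, beside 19% and 18.1% of all tested transcripts. Of 25 nerve and glia transcripts 5 were higher and 4 lower, from 2 to 6 in both directions with 1 library left out. With all libraries that is 20% and 16%, near the 19% and 18.1% of all tested transcripts. Their most abundant member, the adhesion molecule ncam1 (g10852), was not called at -0.49 ± 0.25, and was lower by 0.73 (adjusted p = 0.0106) without FG1907_01. Adipocyte genes were higher for 3 of 9 and lower for 0, and for 1 of 9 without FG1907_06. The lipid droplet protein plin2 (g14812) had 1722, 6331 and 5293 in silver and 544 and 635 in yellow eels of FG1907, against 334, 466 and 617 (lowest, median, highest) in FG1835. The silver eels of FG1907 were high and its yellow eels near the FG1835 maximum. The difference was 2.07 ± 0.53 (adjusted p = 0.0104), with 3.18 in silver and 0.47 in yellow eels. Lipoprotein lipase, lipl (g9732), was higher by 1.63 ± 0.42 (adjusted p = 0.0108), and was not called without FG1907_06 (1.24, adjusted p = 0.0755).

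**Figure D2:**
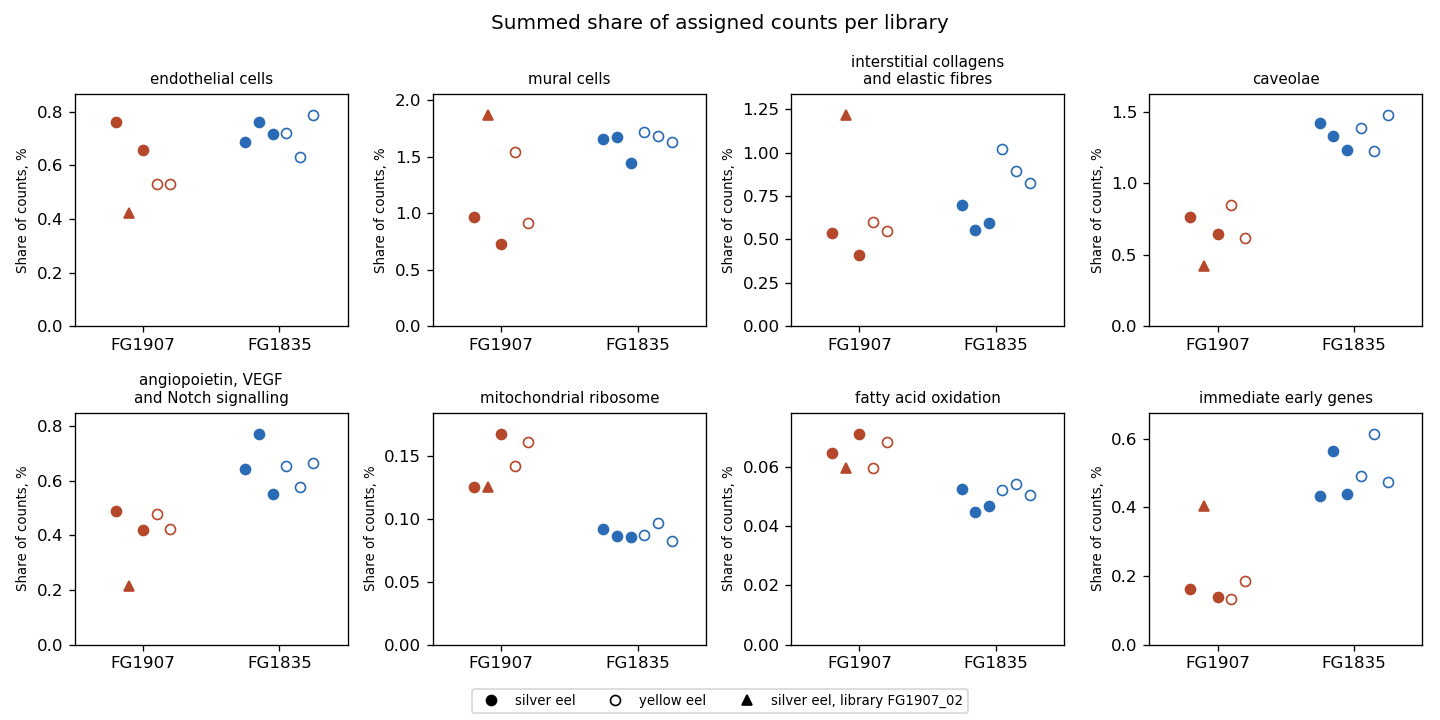
Summed share of assigned counts, in percent, of 8 gene lists in each library, FG1907 on the left and FG1835 on the right, silver eels filled, yellow eels open and FG1907_02 as a triangle, with axes from 0. The caveolae list is at 0.421 to 0.849% in FG1907 and 1.23 to 1.48% in FG1835, and FG1907_02 is the lowest library of the endothelial and the highest of the mural and interstitial collagen lists. The mural share of FG1907_02 includes the transcript rgs5 (g2442), at a relative expression value of 48165 in that library. The caveolae share includes the abundant transcript ptrf (g7388).

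Carriers of glucose and lactate included 2 of the 10 lower transcripts with the smallest p. Monocarboxylate transporter 1, which moves lactate with protons, was counted as 4 tested transcripts, 3 of them lower in FG1907. Of these, mot1 (g33801) had relative expression values of 233, 172 and 219.7 in silver and 114 and 162 in yellow eels of FG1907, against 1454, 1919 and 2537 (lowest, median, highest) in FG1835. The second, mot1 (g33555), had 118, 73.0 and 81.05 in silver and 63.3 and 100.2 in yellow eels of FG1907, against 784, 1205 and 1505 (lowest, median, highest) in FG1835, and the third, mot1 (g33015), had 51.0, 139.8 and 49.3 in silver and 32.8 and 71.4 in yellow eels of FG1907, against 915, 1284 and 1504 (lowest, median, highest) in FG1835. In all 3, the highest FG1907 library stayed far below the lowest FG1835 library. Their differences were -3.45 ± 0.25 (adjusted p = 3.84e-05), -3.65 ± 0.25 (adjusted p = 3.84e-05) and -4.19 ± 0.36 (adjusted p = 6.99e-05), in single stages -2.98 in silver and -4.09 in yellow eels for the first, and with any 1 library left out between -4.63 and -3.24. The fourth, mot1 (g14951), had 1769, 769.8 and 1736 in silver and 1737 and 671 in yellow eels of FG1907, against 613, 859.7 and 1710.1 (lowest, median, highest) in FG1835. Its sets overlapped over most of their range, and it was not called (0.38 ± 0.33, adjusted p = 0.378).

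The other carriers include called and uncalled genes. Monocarboxylate transporter 13, mot13 (g2057), had 243 to 691 in FG1907 and 1219.9 to 3652 in FG1835 and was lower without overlap (-1.998 ± 0.31, adjusted p = 0.000696). The lactate exporter of glycolytic cells, mot4 (g8544), was not called (-0.93 ± 0.39, adjusted p = 0.0772), but was lower by 1.21 without FG1907_03 (adjusted p = 0.0274) and by 1.117 without FG1835_06 (adjusted p = 0.0464). The glucose transporter of the blood-brain barrier and red cells, gtr1 (g18545), was not called (0.31 ± 0.26), while the glucose transporter gtr3 (g12848) was lower with 212, 151 and 386 in silver and 58.8 and 192 in yellow eels of FG1907, against 626, 665 and 1211 (lowest, median, highest) in FG1835. The sets did not overlap, and the difference was -1.99 ± 0.40 (adjusted p = 0.00279). Basigin, the chaperone that brings monocarboxylate transporters to the membrane, had 4482, 189.8 and 4494 in silver and 1885 and 2689 in yellow eels of FG1907, against 785, 1809 and 2686 (lowest, median, highest) in FG1835 for basi (g35786). FG1907_02 was at a small part of the values of the other FG1907 libraries, and the difference of 0.86 ± 0.60 (adjusted p = 0.278) became 1.08 (adjusted p = 0.0356) without FG1907_02. Over the list, 7 of 33 tested transcripts were lower and 1 higher, with a median of 0.087 (0.057 to 0.195 with 1 library left out) that turned to -0.038 and -0.029 with upper quartile and total scaling. The 21.2% lower is near the 18.1% of all tested transcripts, and 3.03% were higher against 19%.

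In the glycolysis list, 19 of 67 tested transcripts were higher and 5 lower, with a median log2 difference of 0.44 (0.23 without FG1907_03). That is 28.4% and 7.46%, beside 19% and 18.1% of all tested transcripts. Upper quartile scaling gave 14 higher and 7 lower, and total scaling gave 14 higher and 6 lower. Without FG1907_06 the number higher was 11, and 3 lower without FG1907_04, FG1907_06 or FG1835_05 and 8 without FG1907_02. The summed shares of the list overlapped (0.385 to 0.776% in FG1907 and 0.440 to 0.510% in FG1835). The isoforms of lactate dehydrogenase, the last step to lactate, differed: ldha (g3489), isoform A, had 906, 798 and 1186 in silver and 1218 and 812 in yellow eels of FG1907, against 297, 346.8 and 403 (lowest, median, highest) in FG1835. All 5 FG1907 libraries lay above the highest FG1835 library. The difference was 1.499 ± 0.16 (adjusted p = 0.00014), while isoform B, ldhb (g412), was not called at 20667 to 41742 in FG1907 and 17615 to 27731 in FG1835 (0.40 ± 0.21, adjusted p = 0.15). Aldolase A, aldoa (g21958), had 2300.0 to 9273 in FG1907 and 4209 to 6255 in FG1835 and was not called (0.30 ± 0.29). Phosphoglycerate kinase, pgk (g38055), was higher (25.0 to 204 in FG1907 and 4.55 to 22.99 in FG1835, 2.59 ± 0.51). Among the 5 lower ones were a phosphoglycerate mutase, pgam1 (g14267) (18.1 to 23.99 in FG1907 and 64.5 to 119 in FG1835, -1.94 ± 0.23), and a platelet-type phosphofructokinase, k6pp (g26510) (5.79 to 28.2 in FG1907 and 42.3 to 88.5 in FG1835, -2.22 ± 0.38), both at low levels and without overlap. In the pentose phosphate pathway, which makes NADPH, 2 of 14 were higher and 0 lower, and 2 stayed higher only without FG1907_02, FG1835_01 or FG1835_02, where any other library left out gave 1. Its transketolase tkt (g8394) was higher by 1.97 ± 0.45 (adjusted p = 0.00534) with 1653 in FG1907_03 and 238 to 492 in the other FG1907 libraries, and the abundant transaldolase taldo (g5646) was not called (0.44 ± 0.27). The 14.3% of this pathway's transcripts higher with all libraries is under the 19% of all tested transcripts.

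Pyruvate dehydrogenase and the citric acid cycle, which feed the respiratory chain, had 13 of 57 tested transcripts higher and 8 lower (4 and 3 lower without FG1907_04 and FG1907_06), a share near the background on the higher side. Cytochrome b560 of succinate dehydrogenase, c560 (g24048), had 723, 466 and 892 in silver and 779 and 768 in yellow eels of FG1907, against 295, 329.9 and 379 (lowest, median, highest) in FG1835. All of FG1907 lay above FG1835 (1.11 ± 0.17, adjusted p = 0.000647). Succinyl-CoA ligase, suca (g8558), was higher by 1.05 ± 0.19 (adjusted p = 0.00181), and a pyruvate dehydrogenase subunit, odp2 (g15409), lower at -1.35 ± 0.27 (adjusted p = 0.00282). Malate dehydrogenase, mdhm (g17381), was not called with all libraries (0.42 ± 0.17, adjusted p = 0.0693), and was higher by 0.50 (adjusted p = 0.0443) without FG1907_01 and by 0.47 (adjusted p = 0.0270) without FG1907_02. The inhibitory kinase pdk2 (g8428) was not called (-0.42 ± 0.31).

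**Figure D3:**
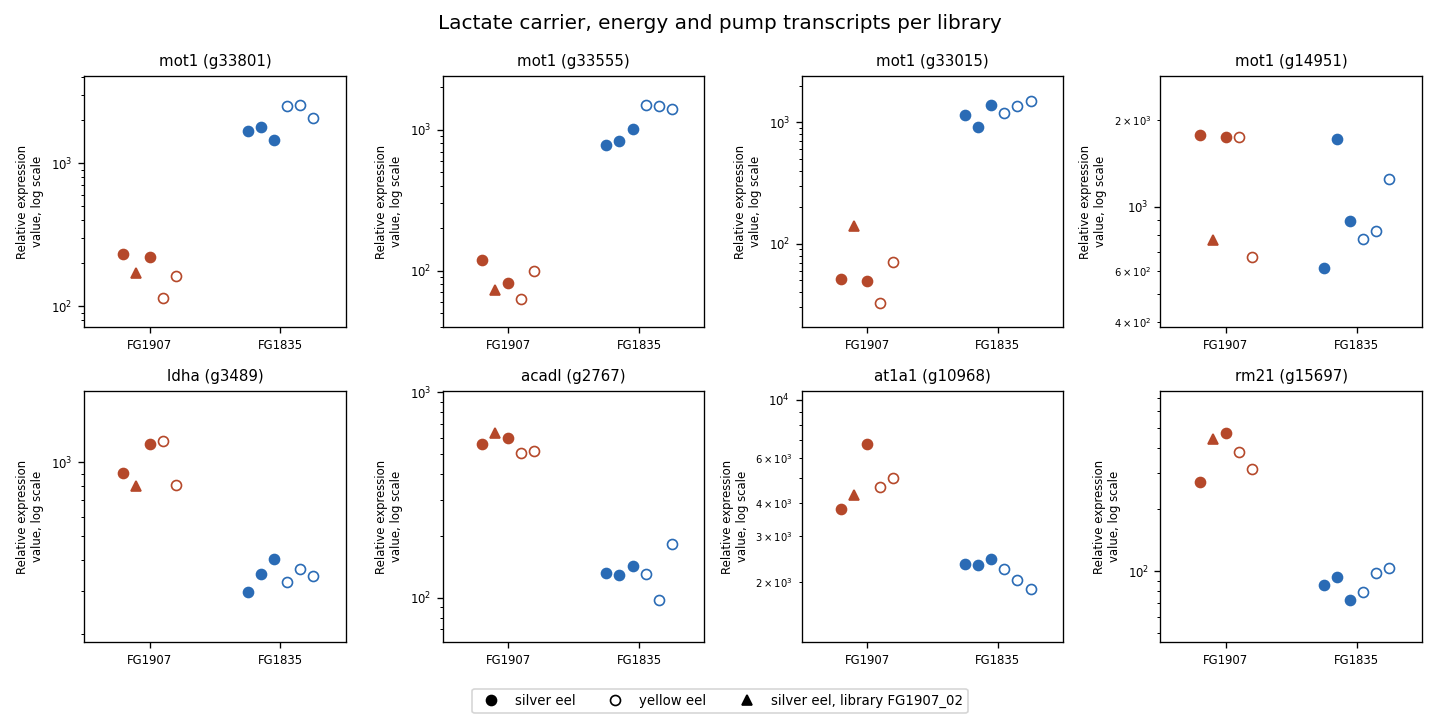
Relative expression values on a log axis of 8 transcripts in each library, FG1907 on the left and FG1835 on the right, silver eels filled, yellow eels open and FG1907_02 as a triangle. The first 3 mot1 transcripts lie lower in FG1907 without overlap, mot1 (g14951) overlaps, and ldha, acadl, at1a1 and rm21 lie higher in FG1907 without overlap.

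Subunits of the respiratory chain were higher in FG1907 far more often than lower. Of complex I, which takes electrons from NADH, 29 of 48 tested transcripts were higher and 2 lower (median 0.74). Of complexes III and IV, 14 of 28 were higher and 0 lower (median 0.56), and 8 higher without FG1907_06. Of ATP synthase, 16 of 26 were higher and 0 lower (median 0.76). The summed share of complexes III and IV did not overlap (0.149 to 0.209% in FG1907, 0.122 to 0.130% in FG1835). Those of complex I (0.138 to 0.236% and 0.125 to 0.143%) and ATP synthase (0.161 to 0.279% and 0.136 to 0.173%) overlapped. The complex I subunit ndua5 (g14228) had 429.8, 333 and 600.2 in silver and 512 and 593 in yellow eels of FG1907, against 163, 199.6 and 249.9 (lowest, median, highest) in FG1835, and ndub9 (g10715) had 679, 509 and 876 in silver and 604 and 682 in yellow eels of FG1907, against 286, 309.8 and 375 (lowest, median, highest) in FG1835. Neither pair of sets overlapped (1.26 ± 0.18, adjusted p = 0.000529 and 1.07 ± 0.16, adjusted p = 0.000556). The core subunit ndus1 (g8924) was higher by 0.88 ± 0.19 (adjusted p = 0.0044), whereas ndua4 (g10136), a subunit first described in complex I, was not called (1946 to 2269.7 in FG1907 and 2087 to 2858 in FG1835, -0.23 ± 0.13). In complexes III and IV, qcr2 (g239) stood at 1.03 ± 0.16 (adjusted p = 0.000657), cx7a2 (g2510) at 1.41 ± 0.18 (adjusted p = 0.00026) and the abundant cox41 (g20442) at 0.84 ± 0.19 (adjusted p = 0.00592), all without overlap. The stalk subunits of ATP synthase atp5h (g13904) and atpo (g8136) had 1105 to 2174 in FG1907 and 501 to 701 in FG1835, and 949 to 1260.1 in FG1907 and 357.3 to 623 in FG1835. They were higher by 1.37 ± 0.20 and 1.27 ± 0.15. The beta and alpha subunits were closer to equal. Beta, atpb (g15560), was called at 0.57 ± 0.20 (adjusted p = 0.0386). That call was kept without FG1907_01, FG1907_02 or FG1835_04 and lost without any of the other 8 libraries (0.43 to 0.57). Alpha, atpa (g2902), was called only without FG1907_02 (0.71, adjusted p = 0.0208).

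Fatty acid oxidation had 16 of 25 tested transcripts higher and 1 lower, with a median of 0.67, and 8 higher without FG1907_06 or 10 without FG1835_05, and 9 with upper quartile or total scaling. Long-chain acyl-CoA dehydrogenase, acadl (g2767), which opens the cycle for long chains, had 563, 635 and 603 in silver and 509 and 518 in yellow eels of FG1907, against 96.9, 131 and 182 (lowest, median, highest) in FG1835. The FG1907 values were close to each other and all above FG1835. The difference was 2.05 ± 0.17 (adjusted p = 6.99e-05), with 2.16 in silver and 1.92 in yellow eels. The electron acceptor subunit etfa (g17589) was higher by 0.95 ± 0.15 (adjusted p = 0.000848). The medium-chain enzyme acadm (g19193) was not called (0.38 ± 0.14, adjusted p = 0.051), and was called higher without FG1907_02 (0.41, adjusted p = 0.0213) and without FG1835_04 (0.43, adjusted p = 0.0478). Carnitine palmitoyltransferase 1A, which admits fatty acids to the mitochondrion, was the member that was lower: cpt1a (g8782) had 129, 250.3 and 72.8 in silver and 173 and 87.2 in yellow eels of FG1907, against 365, 754 and 1081 (lowest, median, highest) in FG1835. The sets did not overlap, at -2.32 ± 0.36 (adjusted p = 0.000667). The share of counts of the list was 0.0595 to 0.0712% in FG1907 and 0.0446 to 0.0542% in FG1835, without overlap.

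The mitochondrial ribosome, which translates the proteins encoded in mitochondria, had 55 of 81 tested transcripts higher and 1 lower (median 0.83). Its share of counts was 0.125 to 0.168% in FG1907 and 0.0825 to 0.0970% in FG1835, without overlap. The large subunit protein rm21 (g15697) had 272, 441 and 471 in silver and 382 and 315 in yellow eels of FG1907, against 72.2, 90.1 and 104 (lowest, median, highest) in FG1835, and the small subunit protein rt10 (g14303) had 243 to 340.4 in FG1907 and 92.7 to 130.0 in FG1835. Both were higher with a wide gap between the sets (2.08 ± 0.19, adjusted p = 7.01e-05 and 1.31 ± 0.16, adjusted p = 0.000217). Mitochondrial carriers and import proteins were higher for 23 of 58 and lower for 0 (median 0.44). Their summed shares overlapped (0.355 to 0.622% in FG1907 and 0.326 to 0.380% in FG1835). The import chaperone tim10 (g28175) was higher by 1.63 ± 0.22 (adjusted p = 0.000391) and the iron-sulfur scaffold iscu (g26037) by 1.92 ± 0.17 (adjusted p = 7.01e-05) with 1599 to 2517 in FG1907 and 316 to 663 in FG1835. Of the ADP/ATP translocases, adt2 (g12829) was higher (0.94 ± 0.26, adjusted p = 0.0146), while the more abundant adt2 (g6355) was called only without FG1907_02 (0.52, adjusted p = 0.0361). No transcript of the table carries the name of a gene encoded in mitochondria, so that part of the chain was not analysed here.

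Pumps that spend ATP followed in the same direction, with 20 of 60 tested transcripts higher and 3 lower (median 0.35) and shares of counts of 0.234 to 0.248% in FG1907 against 0.182 to 0.209% in FG1835. The catalytic subunit of the sodium-potassium pump, at1a1 (g10968), had 3821, 4303 and 6760.0 in silver and 4617 and 5000.3 in yellow eels of FG1907, against 1874, 2289 and 2438 (lowest, median, highest) in FG1835. The lowest FG1907 library lay above the highest FG1835 library, at 1.14 ± 0.16 (adjusted p = 0.000462). In the V-type proton pump, the stalk subunit vate1 (g19556) was higher (214 to 479 in FG1907 and 125 to 179.9 in FG1835, 1.46 ± 0.21) and a membrane subunit, vpp1 (g7389), lower (84.6 to 439 in FG1907 and 598 to 1571 in FG1835, -2.47 ± 0.44). Creatine kinase and adenylate kinase, which buffer ATP, had 3 of 10 higher and 2 lower. The mitochondrial adenylate kinase kad3 (g7279) was lower at -1.32 ± 0.19 (adjusted p = 0.000509), and the brain-type creatine kinase kcrb (g5291) was not called (0.44 ± 0.28).

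Enzymes that remove reactive oxygen were higher for 14 of 31 tested transcripts and lower for 2, with a median of 0.61. The number higher was 7 without FG1907_03, 8 without FG1907_06 and 9 without FG1835_01 or FG1835_03. Summed shares of the list overlapped (0.121 to 0.380% in FG1907 and 0.103 to 0.148% in FG1835). The mitochondrial peroxiredoxin prdx3 (g14794) had 355, 418 and 1891 in silver and 686 and 1084 in yellow eels of FG1907, against 117, 156 and 203 (lowest, median, highest) in FG1835. FG1907_03 was the highest, and no FG1907 library fell into the FG1835 range (2.44 ± 0.39, adjusted p = 0.000835). Copper-zinc superoxide dismutase, sodc (g30276), was higher by 1.62 ± 0.24 (adjusted p = 0.000558). Catalase, cata (g7245), was lower at -1.43 ± 0.29 (adjusted p = 0.00321) for a transcript at 11.3 to 30.2 in FG1907 and 39.98 to 57.4 in FG1835. Peroxiredoxin 5, prdx5 (g8400), had 17624 in FG1907_03 and 783 in FG1907_02, and its difference of 1.11 ± 0.63 (adjusted p = 0.183) became 1.31 (adjusted p = 0.0479) without FG1907_02.

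Signalling genes that shape vessels were lower where called, apart from 1. Of the angiopoietin, VEGF and Notch list 11 of 42 tested transcripts were lower and 1 higher (median -0.49), or 18 lower and 0 higher with upper quartile or total scaling, and its share of counts was 0.214 to 0.488% in FG1907 and 0.551 to 0.772% in FG1835. The Notch receptor notc1 (g2089) had 463, 586 and 451 in silver and 464 and 639.9 in yellow eels of FG1907, against 1601, 2238 and 3043 (lowest, median, highest) in FG1835. The highest FG1907 library was far below the lowest FG1835 library (-2.10 ± 0.19, adjusted p = 7.58e-05). The neighbouring identifier of the same name, notc1 (g2088), had 3818, 1142 and 3130.4 in silver and 5535 and 4877 in yellow eels of FG1907, against 2820.4, 3326 and 3754 (lowest, median, highest) in FG1835. Its sets overlapped with the yellow eels of FG1907 highest, and it was not called (0.13 ± 0.28, adjusted p = 0.742). The Notch ligand of arteries dll4 (g16816) was lower at -1.57 ± 0.35 (adjusted p = 0.00501), and the ligand jag2 (g6322) was not called (-0.50 ± 0.26). The sphingosine-1-phosphate receptor s1pr1 (g6648), which stabilizes endothelial junctions, was lower with 1005 to 1807 in FG1907 and 2319.9 to 2942 in FG1835 (-0.84 ± 0.17, adjusted p = 0.0031). Angiopoietin-2, angp2 (g2104), was the 1 member called higher (0.68 ± 0.22, adjusted p = 0.0328), a call kept without FG1907_02, FG1907_03 or FG1835_06 and lost without any of the other 8 libraries (0.50 to 0.70).

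Vasoactive peptides and their receptors had 2 of 54 tested transcripts higher and 6 lower, and 10 lower without FG1907_02. With all libraries, 3.70% higher and 11.1% lower are under the 19% and 18.1% of all tested transcripts. The endothelin receptor ednra (g11336), through which endothelin constricts vessels, was abundant at 12426 to 20913 in FG1907 and 9099 to 14389 in FG1835 and not called (0.21 ± 0.18). The calcitonin receptor-like receptor calrl (g16101), a receptor of adrenomedullin, was not called either (-0.53 ± 0.27). A natriuretic peptide receptor, anpra (g13620), was higher (1.44 ± 0.36, adjusted p = 0.00905), and an alpha-1 adrenoceptor, ada1b (g11182), lower (-1.50 ± 0.41, adjusted p = 0.0128). The endothelin-converting enzyme ece2 (g3338) was called higher at 0.65 ± 0.23, a call kept without FG1907_01, FG1907_06 or FG1835_01 and lost without any of the other 8 libraries (0.52 to 0.66).

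**Figure D4:**
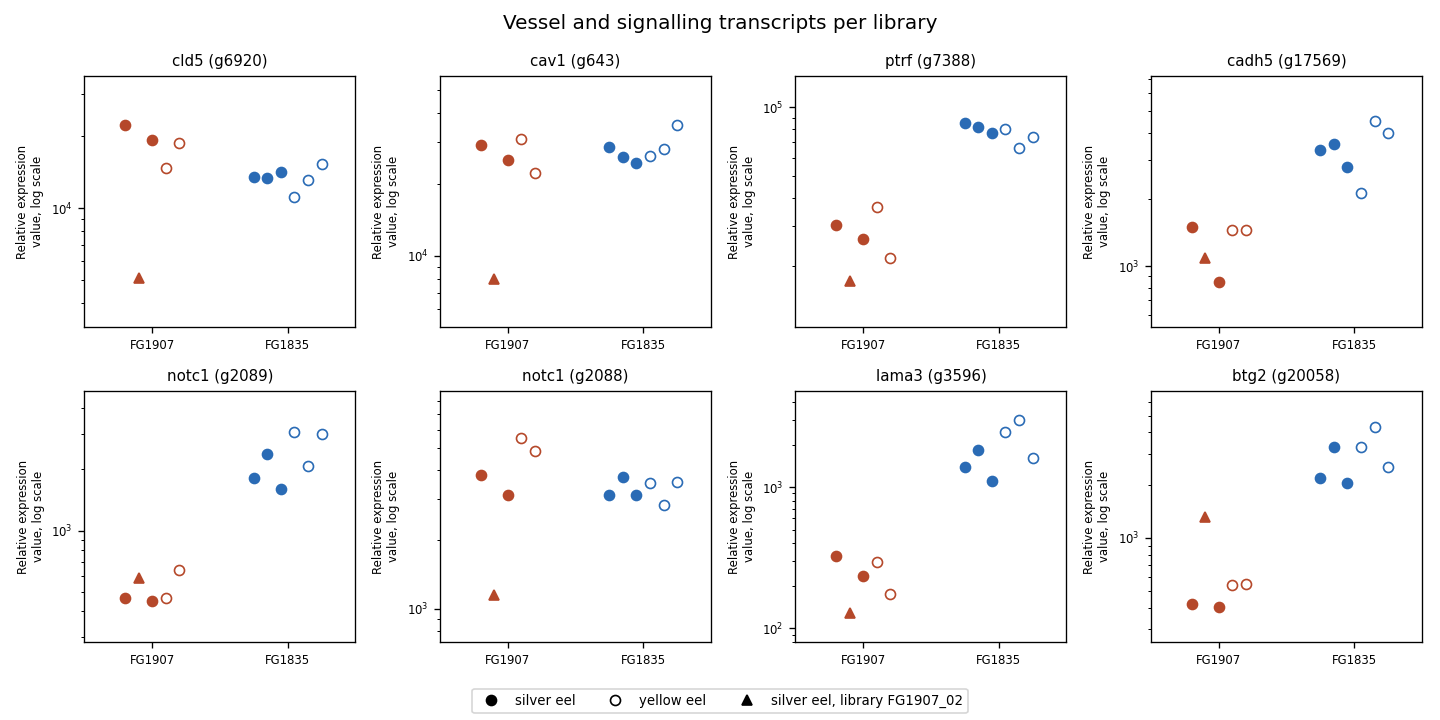
Relative expression values on a log axis of 8 vessel and signalling transcripts in each library, FG1907 on the left and FG1835 on the right, silver eels filled, yellow eels open and FG1907_02 as a triangle. The transcripts ptrf, cadh5 (g17569), notc1 (g2089), lama3 (g3596) and btg2 lie lower in FG1907 without overlap, while cld5, cav1 and notc1 (g2088) overlap with FG1907_02 lowest.

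Caveolae gave the widest gap of the vessel lists in summed share: 0.421 to 0.849% of counts in FG1907 and 1.23 to 1.48% in FG1835. Its most abundant transcript, cavin-1, ptrf (g7388), the coat protein of caveolae, had 30371, 17295 and 26517 in silver and 36468 and 21728 in yellow eels of FG1907, against 66441, 78643 and 85652 (lowest, median, highest) in FG1835. Every FG1907 library stayed below the lowest FG1835 library, and the difference was -1.55 ± 0.21 (adjusted p = 0.000409), with -1.72 in silver and -1.34 in yellow eels. The summed share of the list includes this transcript. The share without it was not computed, so the gap is not shown for the other members. The cavin sdpr (g8460) was also lower without overlap (6499 to 11419.9 in FG1907 and 13313 to 22824 in FG1835, -0.91 ± 0.20, adjusted p = 0.00499). The caveolins, which build the pit itself, were not called: cav1 (g643) had 29219, 8028 and 25343 in silver and 30885 and 22394 in yellow eels of FG1907, against 24527, 27306 and 35609 (lowest, median, highest) in FG1835. FG1907_02 was far below the rest, and the other libraries overlapped. The difference of -0.27 ± 0.28 was -0.094 (adjusted p = 0.667) without FG1907_02. Caveolin-2, cav2 (g642), stood at -0.30 ± 0.17. By transcripts, 3 of 25 were higher and 6 lower, the 3 ranging from 0 to 5 with 1 library left out. With all libraries that is 12% and 24%, beside 19% and 18.1% of all tested transcripts. The median of the list was 0.24, with 14 of 25 transcripts above 0, so it has the other sign than the difference in summed share, and it lay between -0.040 (without FG1907_04) and 0.27 with 1 library left out.

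Adherens and tight junctions had 17 of 59 tested transcripts lower and 6 higher, and 3 higher without FG1907_06, FG1835_01, FG1835_02, FG1835_04 or FG1835_05 or with upper quartile or total scaling (median -0.45). The scaffold protein ZO-1 was lower for zo1 (g21439) with 41.7, 70.9 and 36.4 in silver and 29.4 and 29.7 in yellow eels of FG1907, against 241, 258 and 291 (lowest, median, highest) in FG1835, and for zo1 (g30382) with 52.9 to 92.8 in FG1907 and 229 to 339.6 in FG1835. The sets of both were separate, at -2.71 ± 0.25 (adjusted p = 7.01e-05) and -1.90 ± 0.20 (adjusted p = 0.000123). The polarity protein pard3 (g16878) was higher (1.999 ± 0.34, adjusted p = 0.00121), and beta-catenin, ctnb1 (g3222), which ties cadherins to the cytoskeleton, was not called (-0.0065 ± 0.26). Gap junction genes had 1 of 13 higher and 0 lower, with 3 higher and 1 lower without FG1907_02 and 0 higher without FG1907_06. The 7.69% higher with all libraries is under the 19% of all tested transcripts. The endothelial connexin cxa5 (g16934) was not called (-0.41 ± 0.31), and cxg1 (g14671) was higher by 1.03 ± 0.30 (adjusted p = 0.0178) with all libraries but not without FG1907_06 (0.92, adjusted p = 0.0690).

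The basement membrane, the sheet under the endothelium, had 22 of 71 tested transcripts lower and 10 higher, and 6 higher without FG1835_04 or FG1835_05 or with upper quartile or total scaling (median -0.30, and -0.19 without FG1835_03). The laminin chain lama3 (g3596) had 326, 127 and 234 in silver and 294 and 176 in yellow eels of FG1907, against 1108, 1720.3 and 2989.9 (lowest, median, highest) in FG1835. The gap between the sets was wide (-2.95 ± 0.30, adjusted p = 0.000122), and a laminin alpha-5 transcript, lama5 (g14033), at 11.7 to 61.5 in FG1907 and 144 to 359 in FG1835, was lower at -3.14 ± 0.41 (adjusted p = 0.000325). Nidogen-1, nid1 (g31452), which links laminin and collagen networks, was higher with 563, 342 and 890.4 in silver and 579 and 422 in yellow eels of FG1907, against 183, 197 and 205 (lowest, median, highest) in FG1835. All of FG1907 lay above FG1835 (1.51 ± 0.22, adjusted p = 0.000473). The abundant nidogen-2, nid2 (g4703), was not called (0.11 ± 0.31). The collagen-binding protein sprc (g763) was called higher at 0.68 ± 0.24 (adjusted p = 0.0411), a call kept without FG1907_03, FG1907_06 or FG1835_02 and lost without any of the other 8 libraries, with 0.42 (adjusted p = 0.0611) without FG1907_02.

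Interstitial collagens and elastic fibres depended most on FG1907_02, which had 1.22% of its counts in the list, with 0.409 to 0.601% in the other FG1907 libraries, against 0.555 to 1.02% in FG1835. With it, 3 of 73 tested transcripts were higher and 12 lower (median -0.18), and without it 28 were lower (median -0.65). The 16.4% lower with it is near the 18.1% of all tested transcripts, and 4.11% were higher against 19%. The median was 0.18 in silver eels alone and -0.86 in yellow eels alone. The fibril-associated collagen coea1 (g3018) was higher (1.14 ± 0.26, adjusted p = 0.0058, 1.00 without FG1907_02), and the microfibrillar chain co6a3 (g7207) was higher by 0.83 ± 0.26 (adjusted p = 0.0267), a call lost without FG1907_06, FG1835_04, FG1835_05 or FG1835_06 (0.74 to 0.82). The crosslinking enzyme loxl2 (g706) had 73.0, 184 and 107 in silver and 111 and 143 in yellow eels of FG1907, against 321, 429 and 573 (lowest, median, highest) in FG1835. The sets did not overlap (-1.84 ± 0.25, adjusted p = 0.000417). The elastic fibre protein fbln3 (g13204) was lower at -2.33 ± 0.41 (adjusted p = 0.00148) and would not overlap but for FG1907_02 at 139.8. Elastin microfibril interfacer 1, emil1 (g6826), was not called (-0.39 ± 0.24), and was lower without FG1907_02 (-0.62, adjusted p = 0.0254).

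Matrix proteases and their inhibitors had 7 of 61 tested transcripts higher and 6 lower, the lower ones ranging from 1 (without FG1907_06) and 3 (without FG1907_04 or FG1835_04) to 9. Both shares with all libraries, 11.5% higher and 9.84% lower, are under the 19% and 18.1% of all tested transcripts. The inhibitor timp3 (g19966) had 10010.5, 10721 and 10590.5 in silver and 6076 and 2489.9 in yellow eels of FG1907, against 3200.4, 3684 and 4984 (lowest, median, highest) in FG1835. The silver eels of FG1907 were the highest of all libraries, and its yellow eel FG1907_06 was the lowest of all. It was called at 0.85 ± 0.25 (adjusted p = 0.0181) and not without FG1907_04 (0.77, adjusted p = 0.0654). The inhibitor timp2 (g24267) was not called (0.44 ± 0.25). Procollagen C-proteinase, bmp1 (g7506), was higher by 0.72 ± 0.17 (adjusted p = 0.00598), and the protease ats7 (g6005) lower at -2.52 ± 0.43 (adjusted p = 0.00121). Integrins, the receptors for the matrix, had 12 of 45 lower and 1 higher (median -0.69). The laminin receptor chain ita6 (g12899) was lower with 936 to 2008 in FG1907 and 3125 to 4434 in FG1835 (-1.16 ± 0.21, adjusted p = 0.00171), and the beta-1 chain itb1 (g14912) was the member that was higher (0.90 ± 0.23, adjusted p = 0.00951).

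Genes of contractile control, which set the tone of mural cells, had 10 of 63 tested transcripts higher and 12 lower, with 19 lower without FG1907_02, 7 lower and 6 higher without FG1907_06 or FG1835_05, and 6 higher and 19 lower with upper quartile or total scaling. The shares with all libraries, 15.9% higher and 19.0% lower, are near the 19% and 18.1% of all tested transcripts. The small GTPase rhoa (g2118) was higher without overlap (846 to 1343 in FG1907 and 485 to 809.6 in FG1835, 0.85 ± 0.17, adjusted p = 0.00296), and the adhesion protein talin, tln1 (g22464), lower without overlap (103 to 309.8 in FG1907 and 372 to 712 in FG1835, -1.62 ± 0.29, adjusted p = 0.00169).

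Endothelial transcription and flow-responsive genes had the highest share of lower calls among the vessel lists, 22 of 52, with 3 higher and a median of -0.74. Summed, they took 0.229 to 0.274% of counts in FG1907 and 0.275 to 0.466% in FG1835, values that lie close without overlapping. The factors ets1 (g29743) (8.22 to 13.6 in FG1907 and 33.0 to 59.0 in FG1835, -2.05 ± 0.29), fli1 (g12823) and erg (g2158), all of the ETS family, were lower. As given above, fli1 (g31673) and fli1 (g20087) were not called. The co-activators yap1 (g10088) and wwtr1 (g19757), which respond to stretch, were higher, with 332 to 537 in FG1907 and 199 to 272 in FG1835, and 2232 to 4336 in FG1907 and 1199 to 2177 in FG1835. Neither overlapped (0.89 ± 0.17, adjusted p = 0.00193 and 0.83 ± 0.21, adjusted p = 0.00866). The flow-induced factor klf4 (g14262) was not called, with 22011 in FG1835_05 (0.21 ± 0.49, adjusted p = 0.757). That library holds the 0.466% maximum of the summed share, with 0.275 to 0.336% in the other FG1835 libraries. The summed share includes klf4 (g14262), and the share without it was not computed. Hypoxia response genes had 9 of 32 lower (14 without FG1907_02) and 3 higher (0 without FG1835_04 or FG1835_05). A low-level transcript of the oxygen-sensitive factor hif1a (g39881) was lower (10.2 to 25.5 in FG1907 and 46.4 to 68.2 in FG1835, -1.79 ± 0.28), and the abundant hif3a (g9698) was lower at -0.87 ± 0.25 (adjusted p = 0.0174), not called without FG1907_06 (-0.68, adjusted p = 0.0516). The related factor epas1 (g13321) was not called (-0.34 ± 0.36). The transcripts of ndrg1 went apart, ndrg1 (g383) higher by 1.18 ± 0.37 and ndrg1 (g10144) lower at -1.56 ± 0.20, the first not called without FG1835_04 or FG1835_05 (1.16 and 0.98).

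**Figure D5:**
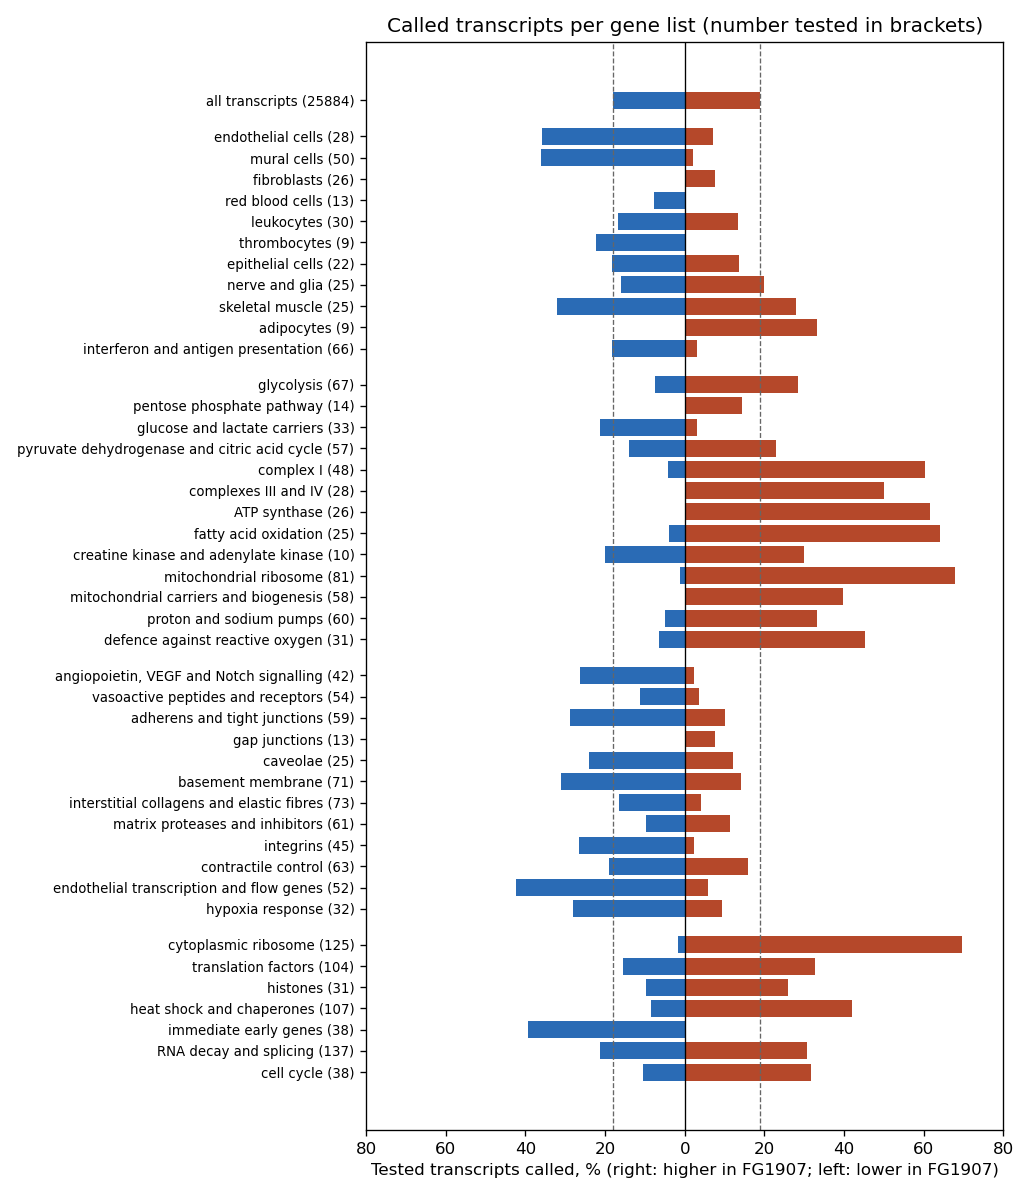
Percent of the tested transcripts of each gene list called higher in FG1907 (right, red) and lower in FG1907 (left, blue), with the number tested in brackets and dashed lines at the 19% and 18.1% of all transcripts. The red bars of complex I, ATP synthase, fatty acid oxidation and the mitochondrial and cytoplasmic ribosome pass 60%, and the endothelial transcription list has the longest blue bar.

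Other cell processes moved with the set beside the lists above, and their part in those results was not tested. Proteins of the cytoplasmic ribosome were higher for 87 of 125 tested transcripts and lower for 2 (median 0.76), at 10.6 to 16.2% of all counts in FG1907 and 7.69 to 10.9% in FG1835, ranges that overlapped. The large subunit protein rl27 (g39035) had 6206, 2345 and 7088 in silver and 7301 and 5285 in yellow eels of FG1907, against 972, 1186 and 1463 (lowest, median, highest) in FG1835. All of FG1907 lay above FG1835, with FG1907_02 closest (2.24 ± 0.26, adjusted p = 0.000183). The abundant rl7a (g735) and rla0 (g14314) were higher by 0.79 ± 0.22 and 1.03 ± 0.25. Translation factors were higher for 34 of 104 and lower for 16, with if5 (g5294) higher by 1.54 ± 0.19 (adjusted p = 0.00025). Chaperones were higher for 45 of 107 and lower for 9 (median 0.69). The folding chamber subunit tcpd (g5598) was higher by 1.85 ± 0.23 (adjusted p = 0.000251), while the abundant HSP90 transcript hs90b (g11574) was not called (0.38 ± 0.23), nor was hsp70 (g7708) with all libraries (0.69 ± 0.26, 0.82 and adjusted p = 0.0121 without FG1907_02, 0.84 and adjusted p = 0.0269 without FG1907_01).

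Immediate early genes, which cells switch on within minutes of handling or stimulation, had 15 of 38 tested transcripts lower and 0 higher (median -0.93), and 25 lower without FG1907_02 (median -1.58). They took 0.134 to 0.184% of counts in the FG1907 libraries other than FG1907_02, 0.403% in FG1907_02 and 0.433 to 0.615% in FG1835. The antiproliferative gene btg2 (g20058) had 422, 1314 and 405 in silver and 541 and 545 in yellow eels of FG1907, against 2065, 2918 and 4314 (lowest, median, highest) in FG1835. FG1907_02 was closest to FG1835, and the sets did not overlap. The difference was -2.17 ± 0.35 (adjusted p = 0.000891) and -2.66 (adjusted p = 1.01e-05) without FG1907_02. The immediate early response gene ier5l (g8010) was lower at -2.24 ± 0.23 (adjusted p = 0.000114), the AP-1 subunit jund (g20073) at -0.87 ± 0.20 and the mRNA decay factor tisb (g11863) at -1.41 ± 0.31.

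Splicing and RNA decay factors were called in both directions, 42 higher and 29 lower of 137, with a median of 0.045 that turned to -0.086 and -0.092 with upper quartile and total scaling. The 21.2% lower is near the 18.1% of all tested transcripts, and 30.7% were higher beside 19%. The summed share of the list was lower in FG1907 without overlap, 0.584 to 0.657% against 0.679 to 0.776% in FG1835. The splicing factor subunit sf3b1 (g18591) had 46.3, 45.9 and 28.2 in silver and 21.5 and 14.8 in yellow eels of FG1907, against 233, 327 and 413 (lowest, median, highest) in FG1835. The sets were far apart (-3.48 ± 0.28, adjusted p = 6.99e-05), yet a transcript of the same name at a higher level, sf3b1 (g29784), was not called (1753 to 3856 in FG1907 and 2290.2 to 4615 in FG1835, -0.13 ± 0.23). The splicing regulator srsf6 (g322) had values close to each other within each set, 243 to 350.5 in FG1907 and 852 to 992 in FG1835, and was lower at -1.69 ± 0.15 (adjusted p = 6.99e-05). Histone transcripts, mostly without polyA tails in cycling cells, had 8 of 31 higher and 3 lower, and 5 higher without FG1907_04 or FG1907_06 or with upper quartile scaling, while their summed share was 0.0959 to 0.155% in FG1907 and 0.161 to 0.208% in FG1835. With all libraries, 25.8% were higher and 9.68% lower, beside 19% and 18.1% of all tested transcripts. The replacement histone h33 (g21782), which carries a polyA tail, was lower at -0.85 ± 0.18 (adjusted p = 0.00395). Cell cycle genes had 12 of 38 higher and 4 lower (7 lower without FG1907_02). With all libraries that is 31.6% and 10.5%, beside 19% and 18.1% of all tested transcripts. The nucleotide reductase subunit rir2 (g10947) was higher by 1.23 ± 0.22 (adjusted p = 0.00138), the proliferation marker ki67 (g12263) lower at low levels (7.05 to 37.1 in FG1907 and 36.8 to 105 in FG1835, -1.65 ± 0.42), and cdk4 (g13802) was called higher at 0.42 ± 0.16 (adjusted p = 0.0495), a call kept without FG1907_02 or FG1835_02 and lost without any of the other 9 libraries (0.36 to 0.46).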

How the data were processed

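RNA of the rete mirabile of 11 eels was sequenced by the authors. They deposited raw read counts per predicted gene of a draft eel genome, a table of 45974 transcripts of which 32673 carry a gene name. Per the study's methods, libraries were polyA-selected and strand-specific. The submitters' processing notes name TopHat2 2.0.13, SAMtools 1.2, HTSeq 0.6.1p1 and DESeq. The table also holds the authors' base means, fold changes, p-values and adjusted p-values between stages, which were not used. Column FG1935_03 was taken as the library titled FG1835_03. The protocol labels speak of the gas gland in places where the tissue label and the study's methods give the rete mirabile.

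Counts were tested with edgeR 4.0.16 in R 4.3.3: TMM scaling, filterByExpr with stage and set, a quasi-likelihood fit with both terms, the set coefficient (FG1907 minus FG1835), two-sided, and Benjamini-Hochberg adjustment over all 25884 tested transcripts with a threshold of 0.05. For the relative expression value, each library's counts were scaled by its DESeq-type size factor. These values are not corrected for transcript length, so "abundant" refers to counts and levels were not compared between genes. Standard errors belong to the log2 differences. A list share is the summed count of the list as a percent of all assigned counts. Totals of 9360429 to 12438185 counts per library limit precision at low levels. The p-values weigh the set difference against the spread between libraries that is left after set and stage. As set and run cannot be told apart, they hold no measure of the variation between runs. The 44 gene lists came from gene names, with 26 names removed and 10 added by their descriptions, and 43 had at least 3 tested members. A list of genes encoded in mitochondria had 0 members. Members and lists were chosen with earlier results of these data known. The naming rule took the 10 smallest p per direction at a mean relative expression value above 50 and, per list, the 2 most abundant members and the 2 called members with the smallest p per direction. It gave 229 transcripts. The text describes 171, of which 155 come from the rule, a choice made after their values were seen. Outside the rule are cadh5 (g17569 and g3545), s1pr1, mot13, mot4, gtr3, mot1 (g14951 and g33015), notc1 (g2088), erg, sdpr, cav2, dll4, tie1, hbaa and ptprc, also chosen after their values were seen. Beyond these 171, myh11 (g2226), rgs5 (g3655 and g2442), notc3 (g19820), mylk (g20981, g16293 and g44506), cadh5 (g38811) and fli1 (g20134, g31673 and g20087) are given for comparison. So are vwf (g45479), egfl7 (g3251), peca1 (g43202) and tie2 (g1122 and g4749). They too were chosen after their values were seen, and no count of named transcripts or flagged groups includes them. Alternatives were no filter, a stricter filter, other scalings, robust estimation, no stage term, a replicate block, single stages, each library left out, DESeq2 1.42.0, limma 3.58.1 and the lists before names were changed, the last chosen after seeing the data. Scripts were tested on simulated counts. No sequence is printed, as no genome of the build was used here.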

Additional observations from a re-analysis of the deposited data

Results flagged for a closer look

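In 30 of 428 groups of 5 or 6 libraries, 1 library stood apart by Dixon's ratio on log2 values, the gap to its nearest neighbour over the range of the group, which passed the 95% critical value for the size of the group. A rate of about 1 in 20 holds for independent groups of normally distributed values. These groups share the same libraries, and their transcripts were chosen after their values were seen, so that rate is no yardstick for the count. FG1907_02 was that library in 9 groups, more than any other. Its values stood at the low end for the share of the angiopoietin, VEGF and Notch list (ratio 0.811) and for cld5 (0.717), vgfr2 (0.831), basi (0.725), anpra (0.718), cav1 (0.761), rl27 (0.715) and cdk4 (0.824), and at the high end for btg2 (0.748).

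Among the other FG1907 libraries, FG1907_01 was high for itam (0.801), ncam1 (0.777) and ednra (0.862). FG1907_03 was low for ptprc (0.727) and nid2 (0.826), and FG1907_06 was low for atpo (0.760). The ednra group had the highest ratio of all, with 20913 in FG1907_01 and 12426 to 13354 in the other FG1907 libraries.

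In FG1835, FG1835_03 was low for ha1l (0.693), pgk (0.694) and kcrb (0.719) and high for the share of histones (0.646). FG1835_05 was high for dll4 (0.767), ita6 (0.755) and klf4 (0.631). FG1835_06 was low for the share of mural cells (0.702) and for tln1 (0.653) and high for zo1 (g30382, 0.742). FG1835_01 was low for k6pp (0.731), ccd39 (0.669) and rai14 (0.730). FG1835_04 was high for vate1 (0.704) and FG1835_02 for kad3 (0.660).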

How the results depend on the processing

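Limits: stage is unevenly spread over the sets, 2 yellow eels stand behind FG1907, and the set cannot be told apart from the sequencing run or the eels. The number of called transcripts, 9602, was 6233 with a filter at a mean relative expression value above 50, which tested fewer transcripts, 427 in silver eels alone and 7787 in yellow eels alone, a gap whose cause was not tested, and 6211 with a log2 difference over 1 required. With 1 library left out it lay between 7105 (without FG1907_06) and 11819 (without FG1907_02). The library number as a replicate block gave 6054 calls (2758 higher and 3296 lower), and 17 of 171 named transcripts lost their call in it. Same-numbered libraries correlated in their deviations at -0.038 to 0.13, and only number 06 correlated best with its own number, so the numbers were not read as pairs.

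The number of lists with more higher than lower calls was 23, 9 in silver eels alone, 21 to 25 with 1 library left out, 18 with upper quartile or total scaling and 19 in DESeq2. Transcripts whose set difference depends on stage numbered 0, 2 without a filter, 23 in DESeq2, and 0 to 1 with 1 library left out (1 without FG1907_06). The number of lists whose shares did not overlap was 10, between 10 and 15 with 1 library left out (15 without FG1907_01, 14 without FG1907_02), and 9 for the lists before names were changed. No direction turned among the called ones of the named transcripts. The balance of higher and lower calls did turn in places. Over all tested transcripts, 4917 higher and 4685 lower became 3735 and 5620 with upper quartile scaling. In the fibroblast list, 2 higher and 0 lower became 1 and 6 without FG1907_02. In the RNA decay and splicing list, 42 higher and 29 lower became 35 and 36 with upper quartile scaling. Under upper quartile and total scaling the medians of the epithelial, nerve and glia, skeletal muscle, carrier and RNA decay and splicing lists changed sign. With 1 library left out, the sign turned for the medians of the fibroblast, red cell, leukocyte, epithelial, nerve and glia, skeletal muscle, vasoactive, gap junction, caveolae, protease and RNA decay and splicing lists. Over all alternatives, 3660 values of single transcripts kept their side of the threshold, 51 gained and 216 lost a call, 87 of them in silver eels alone, and the cause was not tested.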
